A study of Mus musculus with 6 samples.

Results

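The genes described here are 6 matrix metalloproteinases (MMPs), *Mmp13*, *Mmp3*, *Mmp10*, *Mmp9*, *Mmp2* and *Mmp14*, the 3 tissue inhibitors of metalloproteinases (TIMPs) *Timp1*, *Timp2* and *Timp3*, and the related sheddase gene *Adam17*. These 10 of the 17554 genes in the deposited table were found by gene symbol, and all 10 were present. They were chosen by name after the difference between mutant and control corneas in these same samples was known, so their values in that comparison are given as a description: no p-value is printed for any one of them, and the count of those past the test is printed only beside that of all genes. RNA of the corneal epithelium was measured by bulk RNA-seq in 3 mutant and 3 control mice, all of the C57BL/6 strain and 2 months old. The labels give the control mice as WT and the mutant mice as Rela-/-, and the study describes the mutant as *Krt14-Cre; Rela f/f*. *Krt14-Cre* drives recombination wherever the keratin 14 promoter is active and in the progeny of those cells, which include the corneal epithelium, the conjunctiva and other stratified epithelia, and *Rela* encodes the RelA subunit of NF-κB. Whether the control mice carried Cre or the floxed allele is not given in the labels.

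MMPs are zinc-dependent proteases that cut components of the extracellular matrix. Most are secreted as inactive precursors, whose prodomain must be removed, and TIMPs bind the active enzyme and block it. In the cornea, MMPs are best known from wound healing and ulceration, where epithelial cells and keratocytes make collagenases, stromelysins and gelatinases that act on the basement membrane and the stroma. ADAM17 is a membrane protease that releases the extracellular parts of cytokines, growth factors and receptors, and TIMP3 is its main TIMP inhibitor.

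*Mmp13*, *Mmp3* and *Mmp10* lie in 1 cluster on chromosome 9, and the 100 bases before their transcription start are shown because these 3 genes had the largest increases in mean FPKM among the 6 MMPs. The sequences are RefSeq promoters of GRCm38.p6, written 5′ to 3′ on the + strand, with the AP-1 letters TGANTCA in capitals:
Mmp13, chr9:7272414-7272513: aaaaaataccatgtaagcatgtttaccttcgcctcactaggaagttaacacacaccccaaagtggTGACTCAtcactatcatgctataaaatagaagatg
Mmp3, chr9:7445722-7445821: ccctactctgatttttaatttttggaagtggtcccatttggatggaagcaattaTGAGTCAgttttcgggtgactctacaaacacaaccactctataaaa
Mmp10, chr9:7502242-7502341: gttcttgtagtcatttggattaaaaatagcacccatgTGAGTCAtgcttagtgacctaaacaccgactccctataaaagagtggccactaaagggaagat

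The AP-1 letters, which read alike on both strands and are bound by dimers of Fos and Jun proteins, began 35 bases before the start in *Mmp13*, 46 bases in *Mmp3* and 63 bases in *Mmp10*. Of the 10 genes, 8 had a promoter in the RefSeq table, and the other 5 of these (*Mmp14*, *Timp1*, *Timp2*, *Timp3* and *Adam17*) held no TGANTCA in the 250 bases before the start. None of the 8 held the NF-κB consensus in that window on either strand. Among all 32851 promoters of the table, 6.75% held TGANTCA and 7.25% held the NF-κB consensus in the 250 bases before the start, and 2.73% held TGANTCA in the last 100. The letters were not particular to the genes with RNA in these corneas. In the same cluster *Mmp1b*, *Mmp7* and *Mmp20* also had TGANTCA within 250 bases of a start, and none of these 3 reached more than 3 counts in any sample. *Mmp12*, the other gene of the cluster with RNA in mutants, had 2 starts in the table: 1 held no TGANTCA and an NF-κB consensus beginning 129 bases before it, and the other held TGANTCA at 44 bases and no NF-κB consensus. A match describes the letters in this window and not a bound site.

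The 6 libraries were close in depth, with 19492942 to 19733834 expected counts each, so that 3 counts, the floor used for a gene at 0, corresponded to 0.152 to 0.154 CPM (counts scaled to a common library size; intervals and floors here cover counting error only). *Rela* was at 1799, 1672 and 1614 counts in controls and at 230, 260 and 270 in mutants (log2 fold change -2.75, SE 0.08, adjusted p = 5.5e-07, edgeR quasi-likelihood test). Markers of the corneal epithelium were abundant in every sample: *Krt12* was at 604051 to 751903 counts and *Krt5* at 461342 to 546821. Of the 5 listed, 3 (*Krt12*, *Pax6* and *Aldh3a1*) were lower in every mutant sample than in every control sample. Among all genes tested, the groups did not overlap in either direction for 33.7%. *Aldh3a1* passed the test (log2 fold change -0.25, SE 0.07, adjusted p = 0.047, edgeR). *Krt12* (-0.15, SE 0.08), *Pax6* (-0.15, SE 0.07) and *Krt5* (-0.07, SE 0.08) did not. *Krt14*, whose promoter drives the Cre, was higher in mutants (log2 fold change 3.32, SE 0.18, adjusted p = 1.1e-05, edgeR). Markers of stromal cells, leukocytes and endothelium are given further on. Of the 4 conjunctival markers, *Krt13* was lower in mutants (log2 fold change -0.45, SE 0.10, adjusted p = 0.015, edgeR), *Krt4* was lower in every mutant sample without passing the test (-1.01, SE 0.35), and the summed FPKM of the list was 1362 to 1595 in controls and 1074 to 1191 in mutants. No marker of epidermis, corneal endothelium or melanocytes passed the test. The part of these cells in the results was not tested, and in bulk samples more cells of a type and more RNA per cell cannot be told apart. The labels do not say that replicates came from separate litters or days, so the tests measure the spread between these mice.

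*Mmp13* encodes a collagenase that cuts fibrillar collagen. Its FPKM (a read count scaled by transcript length and library size) was 0, 0.02 and 0.06 in controls, and 12.39, 6.12 and 6.91 in mutants. Every mutant sample lay above every control sample, and the control values stand for 0, 1 and 3 counts against 648, 321 and 366. The summed CPM was 332 times higher in the mutant group, with a 95% counting interval of 130 to 1222, and the fitted log2 fold change was 8.25 (SE 0.53). By mean FPKM, *Mmp13* exceeded 15.2% of the genes of the table in the control group and 64.3% in the mutant group.

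*Mmp3* and *Mmp10* encode stromelysins, which cut proteoglycans, laminin and other basement membrane proteins and can activate other MMP precursors. *Mmp10* was at 0.41, 0.40 and 0.33 FPKM in controls and at 4.38, 2.67 and 2.46 FPKM in mutants (log2 fold change 3.03, SE 0.30). It was the only one of the 5 secreted MMPs among the 10 genes with more than 10 counts in every control sample. *Mmp3* was at 0, 0.13 and 0 FPKM in controls and at 1.56, 0.88 and 0.26 FPKM in mutants, or 0, 4.48 and 0 against 54.74, 30.73 and 9.29 expected counts. The groups did not overlap for either gene. The summed *Mmp3* level, taken on counts rounded to whole numbers, was 23.7 times higher in the mutant group (95% counting interval 8.94 to 88.6). That interval leaves out any error in dividing reads between *Mmp3* and *Mmp10*. These 2 transcripts are alike in part: 8.37% of the 50-base windows of *Mmp10* also occur in *Mmp3*. Their expected counts were not whole in control sample 2 and in the 3 mutant samples, but their sum was whole in each sample, at 14, 18 and 11 in controls and 202, 121 and 93 in mutants, so the counting divided reads between this pair. The sum was higher in every mutant sample than in every control sample.

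The gelatinases *Mmp9* and *Mmp2*, whose products cut denatured collagen and type IV collagen of basement membranes, stayed near the floor in both groups. *Mmp9* had 0, 1 and 0 counts in controls and 13, 5 and 3 in mutants, or at most 0.21 FPKM. *Mmp2* had 0, 0 and 1 counts in controls and 10, 9 and 5 in mutants, or at most 0.17 FPKM. The mutant values lay above the control values for both genes, with summed levels 20.9 times higher for *Mmp9* (95% counting interval 3.36 to 865) and 23.9 times higher for *Mmp2* (3.90 to 983). The intervals are wide because each ratio rests on 1 count in the control group.

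*Mmp14* encodes a membrane-anchored MMP that cuts collagen at the cell surface and, with TIMP2, activates the precursor of MMP2. It was the most abundant of the 10 genes in both groups and exceeded 95.2% of the genes of the table in the control group by mean FPKM. Its FPKM was 74.17, 71.60 and 72.39 in controls and 54.98, 71.83 and 71.29 in mutants. Mutant samples 2 and 3 lay within or just below the control values and mutant sample 1 lay below them, so the groups overlapped (log2 fold change -0.14, SE 0.10).

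**Figure D1:**
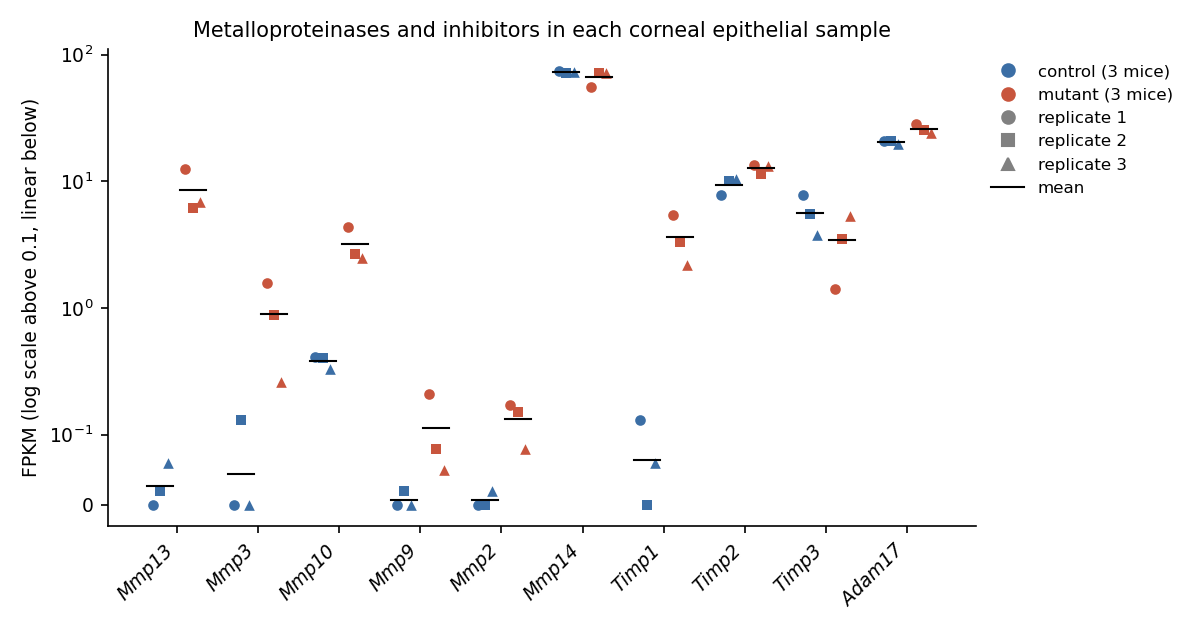
FPKM of the 10 genes (y axis, log scale above 0.1 and linear below) in the 3 control and 3 mutant samples, with 1 point per mouse and a line at each group mean. For *Mmp13*, *Mmp3*, *Mmp10*, *Mmp9*, *Mmp2*, *Timp1*, *Timp2* and *Adam17* every mutant point lies above every control point, while the points of *Mmp14* and *Timp3* overlap.

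The 3 inhibitors did not move together. *Timp1*, which encodes a secreted inhibitor that is induced in many wounded and inflamed tissues, was at 0.13, 0 and 0.06 FPKM in controls and at 5.44, 3.30 and 2.17 FPKM in mutants. In counts these were 2, 0 and 1 against 92, 56 and 37, and the summed level was 61.4 times higher in the mutant group (95% counting interval 20.7 to 301). *Timp2*, usually expressed constitutively, was at 7.76, 10.04 and 10.41 FPKM in controls and at 13.35, 11.36 and 13.14 FPKM in mutants. The groups did not overlap for *Timp2*, but the difference was small beside that of *Timp1* (log2 fold change 0.42, SE 0.12).

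*Timp3* encodes the inhibitor that binds to the matrix and also blocks ADAM17. It was at 7.74, 5.48 and 3.76 FPKM in controls and at 1.40, 3.52 and 5.34 FPKM in mutants. Both groups were widely spread, mutant sample 3 lay between control samples 2 and 3, and the log2 fold change of -0.73 had an SE of 0.39. *Timp3* lies within *Syn3* on the opposite strand, and 20.8% of its 50-base windows also occur in *Syn3* transcripts. *Syn3* was at 203.51 to 229.06 expected counts in controls and at 213.02 to 294.08 in mutants, so its counts did not vary as much as the *Timp3* counts of 128.80 to 718.52. *Timp1* lies within *Syn1*, again on the opposite strand, and *Syn1* had 4 to 7 counts in every sample of either group.

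*Adam17* was at 20.69, 20.87 and 19.81 FPKM in controls and at 28.04, 25.26 and 23.88 FPKM in mutants. All 3 mutant samples lay above the control samples, by a log2 fold change of 0.33 (SE 0.08). The last exon bases of *Adam17* overlap those of *Iah1*, with which it shares 3.48% of its windows, and the groups overlapped for *Iah1* (280.84 to 336.37 counts over the 6 samples).

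Of the 10 genes, 7 had enough counts to be tested in the fit over 12667 genes, and *Mmp3*, *Mmp9* and *Mmp2* did not. Of the 7, 5 (*Mmp13*, *Mmp10*, *Timp1*, *Timp2* and *Adam17*) were higher in the mutant group at an adjusted p under 0.05, and 0 were lower. The share called among all genes tested was 13.2%, with 7.82% higher and 5.42% lower. A stricter rule asked for a fold of at least 2 and an adjusted p no higher than 0.001, and 3 of the 7 met it (*Mmp13*, *Mmp10* and *Timp1*) against 1.37% of all genes. The groups did not overlap for 5 of the 7 tested genes, with the mutant values higher for each, against 33.7% of all genes tested in either direction, and they did not overlap for the 3 untested genes either. Since the genes were chosen with this contrast known, nothing is read from these counts. *Mmp13* and *Timp1* reached 10 counts in no control sample and passed the filter only through the mutant samples, so that they had to differ. The calls of *Timp2* and *Adam17* were at the edge of the threshold: leaving out any 1 of the 6 samples ended that of *Timp2* (log2 fold changes 0.29 to 0.51), and leaving out control sample 1, 2 or 3 or mutant sample 2 ended that of *Adam17* (0.26 to 0.39 over the 6 such fits). Leaving out control sample 1, 2 or 3 left 1 gene, *Mmp13*, past the stricter rule, and leaving out mutant sample 2 left 2, *Mmp13* and *Mmp10*.

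Mutant sample 1 was the highest of the 3 for 8 of the 10 genes and the lowest for the other two, *Mmp14* and *Timp3*. It was the highest for 37.6% of all genes tested. Relative to the mean of mutant samples 2 and 3 in CPM, mutant sample 1 was 1.93 times as high for *Mmp13*, 1.72 times for *Mmp10*, 2.01 times for *Timp1*, 0.778 times for *Mmp14* and 0.321 times for *Timp3*. Mutant sample 3 was the lowest for 6 of the 10 genes. For the 8 genes whose full groups did not overlap, mutant samples 2 and 3 lay above every control sample by definition. Setting mutant sample 1 aside in this way is therefore no further check, and the share of all genes with that pattern was not computed.

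Transcripts of stromal cells were mostly highest in mutant sample 1 too. Of 10 genes listed as markers of keratocytes and fibroblasts, 4 (*Dcn*, *Col1a1*, *Col3a1* and *Vim*) were higher in every mutant sample than in every control sample, 1 (*Pdgfra*) was lower, and mutant sample 1 was the highest mutant for 7. Among all genes tested, the groups did not overlap in either direction for 33.7%, and mutant sample 1 was the highest mutant for 37.6%. The summed FPKM of the list was 2.61 to 3 in controls and 5.58, 3.98 and 2.32 in mutant samples 1, 2 and 3. Without *Pdgfra*, which made up most of the control value, the other 9 genes summed to 15.4 to 23.6 counts in controls and to 209, 123 and 52 counts in mutant samples 1, 2 and 3 (this trimmed list was chosen after its values were seen). *Kera*, the defining gene of keratocytes, was at 0 to 2 counts in every sample. *Lum* was at 0, 1 and 0 counts in controls and at 23, 10 and 0 in mutants. In mutant sample 3, *Dcn* was at 14 counts (1 to 3 in controls), *Vim* at 9 (0 to 2), *Col1a1* at 6 (1 to 2) and *Col3a1* at 6 (0 to 1). *Mmp13*, *Timp1* and *Mmp2* are genes that stromal cells can also express, and the part of stromal RNA in their differences was not tested.

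*Ptprc*, which marks all leukocytes, was at 6, 6 and 1 counts in controls and at 14, 2 and 9 in mutants. *Adgre1* of macrophages and *Cd3e* of T cells did not exceed 5 counts in any sample. *Itgam* and *Cd68*, which made up most of the control sum of the list, were abundant in every sample, at 4749.27 to 8724.76 and 415 to 589 counts, and did not pass the test (log2 fold changes 0.10, SE 0.19, and 0.22, SE 0.11). The calprotectin genes *S100a8* and *S100a9*, which neutrophils and stressed keratinocytes both express, were higher in every mutant sample, with *S100a9* at 13515, 2646 and 1966 counts in mutant samples 1, 2 and 3 and at 29 to 63 in controls. Over the list of 9 leukocyte genes in the table, 2 were higher in every mutant sample and 1 (*Ly6g*) was lower. Among all genes tested, the groups did not overlap in either direction for 33.7%. The summed FPKM of the list was 86.9 to 100 in controls and 309 to 1786 in mutants, and *S100a8* and *S100a9* made up most of the mutant sums. The 4 endothelial markers in the table summed to 0.03 to 0.12 FPKM in controls and to 0.16 to 0.25 FPKM in mutants. The part of these cells in the *Mmp9* and *Timp1* values was not tested.

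The order of the 10 genes by mean FPKM, a measure per transcript length, changed in the middle and lower ranks. In the control group it ran *Mmp14* (72.7 ± 1.3, SD, n = 3), *Adam17* (20.5 ± 0.57), *Timp2* (9.40 ± 1.4), *Timp3* (5.66 ± 2.0) and *Mmp10* (0.38 ± 0.044), none of which overlapped with its neighbour. The other 5 genes followed at mean values of at most 0.0633 FPKM, and none of their neighbours in the order was separated by more than the spread. In the mutant group *Mmp14* (66.0 ± 9.6 FPKM), *Adam17* (25.7 ± 2.1) and *Timp2* (12.6 ± 1.1) kept their ranks. *Mmp13* (8.47 ± 3.4 FPKM) stood in the next rank and overlapped with *Timp2*. *Timp1* (3.64 ± 1.7), *Timp3* (3.42 ± 2.0) and *Mmp10* (3.17 ± 1.1) followed and could not be separated from each neighbour. *Mmp3* (0.90 ± 0.65 FPKM) stood below them, and *Mmp2* (0.133 ± 0.047) and *Mmp9* (0.113 ± 0.085) remained last.

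Summed over the 6 MMPs, the FPKM was 73.2 ± 1.2 in the control group and 78.8 ± 4.5 in the mutant group (SD, n = 3). *Mmp14* alone made up 99.2 to 99.5% of this sum in controls and 74.6 to 88.0% in mutants. Without *Mmp14*, the MMP sum was 0.41, 0.57 and 0.41 FPKM in controls and 18.7, 9.90 and 9.76 FPKM in mutants. The 3 TIMPs summed to 15.1 ± 0.78 FPKM in the control group and 19.7 ± 1.3 FPKM in the mutant group. *Timp1* made up 0 to 0.832% of the TIMP sum in controls and 26.9, 18.2 and 10.5% in mutant samples 1, 2 and 3. *Timp3* ranged from 26.4 to 49.5% of that sum in controls and from 6.93 to 25.9% in mutants.

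**Figure D2:**
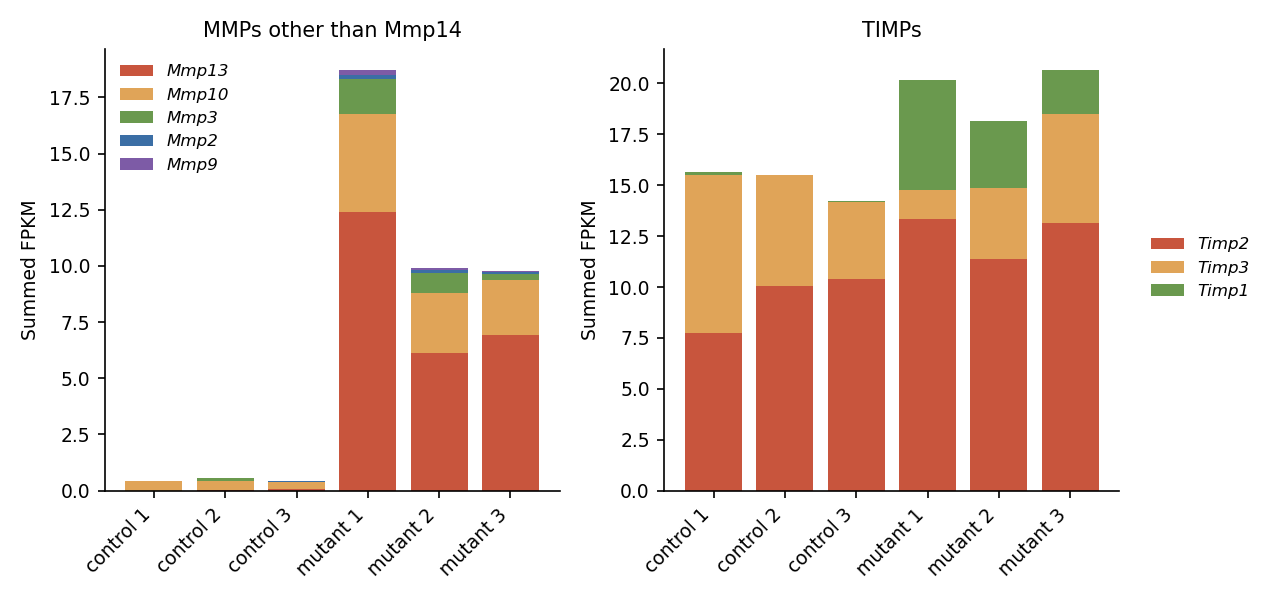
Stacked bars of FPKM (y axis) in each of the 6 samples, for the 5 MMPs other than *Mmp14* on the left and the 3 TIMPs on the right. The left bars stay at or below 0.57 in controls and reach 18.7, 9.90 and 9.76 in mutants, most of it *Mmp13* and *Mmp10*, and on the right *Timp1* appears as a visible share only in mutants.

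The ratio of the MMP sum to the TIMP sum was 4.77, 4.65 and 5.12 in controls and 3.65, 4.50 and 3.92 in mutants. This ratio was therefore lower in each mutant sample than in each control sample. The mean log2 ratio differed by -0.27 between the groups (mutant minus control), by 0.02 when *Timp1* was left out of the sums, by -0.68 without *Timp3*, by -0.44 without *Mmp13* and by -0.07 with CPM in place of FPKM. Without *Mmp14*, the ratio was 0.0306 ± 0.0055 in the control group and 0.648 ± 0.24 in the mutant group (SD, n = 3), and its direction was the opposite. Such ratios compare RNA and say nothing about how much active enzyme or free inhibitor was present.

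The MMP cluster on chromosome 9 was followed gene by gene, since its members share a neighbourhood. By the coordinates of the table (GRCm38), *Mmp13* lies at 7272514-7283333, *Mmp12* at 7344397-7360461, *Mmp3* at 7445822-7455975 and *Mmp10* at 7502342-7510242. *Mmp12*, the macrophage elastase gene, was not among the 10 genes and was at 1, 3 and 2 counts in controls and at 184, 74 and 49 in mutants. Its summed level was 51.0 times higher in the mutant group (95% counting interval 23.2 to 140, log2 fold change 5.59, SE 0.70, adjusted p = 9.1e-04, edgeR). Like *Mmp13* and *Timp1*, it reached 10 counts in no control sample and passed the filter only through the mutant samples. The other measured MMP genes of the cluster, *Mmp1b*, *Mmp27*, *Mmp20* and *Mmp7*, had at most 5 counts in any sample. The plotted genes that flank the cluster did not pass the test. *Dync2h1* and *Dcun1d5* on the side of *Mmp13* had log2 fold changes of -0.52 (SE 0.16, adjusted p = 0.063, edgeR) and 0.05 (SE 0.08). *Tmem123* and *Birc2* on the other side had log2 fold changes of -0.13 (SE 0.07) and -0.20 (SE 0.09), and *Yap1* beyond them had -0.26 (SE 0.08), just short of the threshold (adjusted p = 0.050, edgeR). *Dync2h1* and *Yap1* each passed under some of the alternatives, both of them with DESeq2 and *Dync2h1* also with no filter on low counts (adjusted p = 0.048). *Birc3*, a known target of NF-κB, had a log2 fold change of 0.58 (SE 0.19, adjusted p = 0.072, edgeR).

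**Figure D3:**
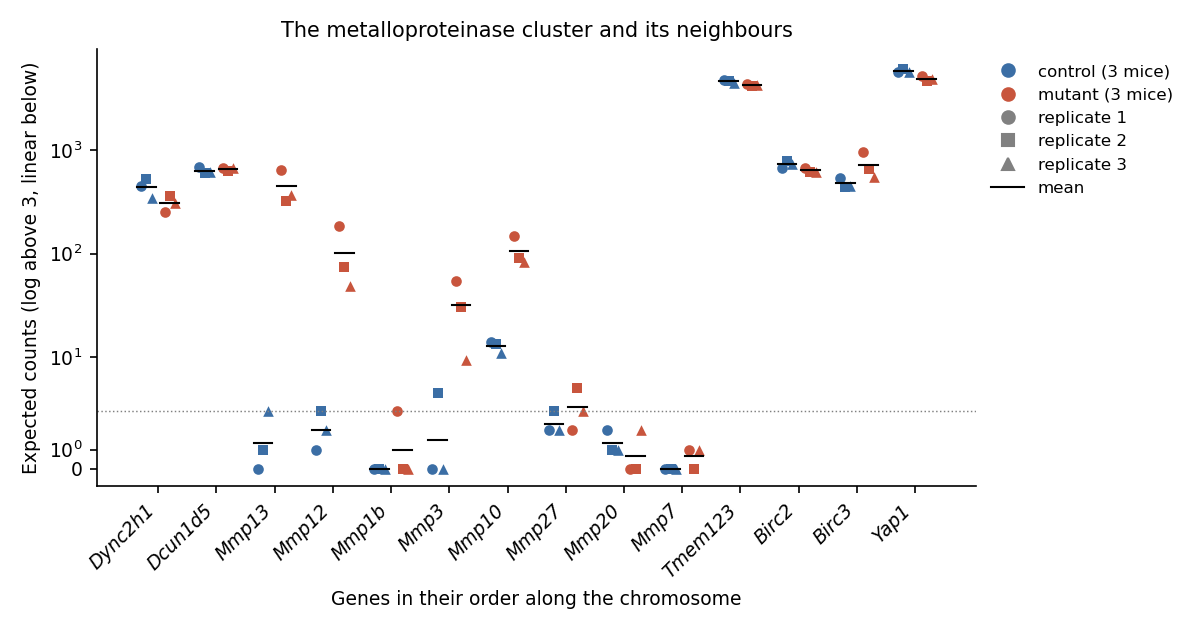
Expected counts (y axis, log scale above 3 and linear below, dotted line at 3 counts) of the genes of the MMP cluster and its neighbours, in their order along the chromosome, with 1 point per mouse and a line at each group mean. *Mmp13*, *Mmp12*, *Mmp3* and *Mmp10* are higher in every mutant sample, *Mmp1b*, *Mmp27*, *Mmp20* and *Mmp7* stay at or below 5 counts, and the flanking genes lie far above them in both groups.

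Outside the cluster, the other MMPs that passed the test were lower in mutants. Across the list of other secreted MMPs, 10 of 12 were in the table and 4 were tested, of which *Mmp12* rose and *Mmp23* fell. *Mmp23* was at 34, 37 and 39 counts in controls and at 7, 18 and 14 in mutants (log2 fold change -1.49, SE 0.33, adjusted p = 0.016, edgeR). Without control sample 2 or control sample 3 that call was lost, at adjusted p-values of 0.065 and 0.066. The epithelial *Mmp28* was measured at 865.2 to 1217.86 counts over the 6 samples (log2 fold change -0.04, SE 0.12). Of the 5 other membrane-type MMPs 2 were tested, and *Mmp15* fell from 1322, 1239 and 1168 counts to 909, 914 and 1019 (log2 fold change -0.40, SE 0.07, adjusted p = 0.0079, edgeR). The other inhibitors, *Reck* at up to 3 counts and *A2m* at up to 12 counts in a sample, were too low to be tested. These lists and those that follow were drawn up with earlier results of these data known.

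Activators of MMP precursors and binding partners of MMPs formed a list of 12, of which 10 passed the filter. Of these, 5 rose and 1 fell. The binding partners *Bsg* (log2 fold change 0.12, SE 0.07) and *Cd44* (-0.14, SE 0.09) did not pass the test. Urokinase (*Plau*) and tissue plasminogen activator (*Plat*) convert plasminogen to plasmin, which activates several MMPs. *Plau* was at 274, 161 and 141 counts in controls and at 646, 697 and 829 in mutants (log2 fold change 1.91, SE 0.20, adjusted p = 3.9e-04, edgeR). The urokinase receptor *Plaur* rose from 8, 3 and 6 counts to 202, 125 and 165 (log2 fold change 4.82, SE 0.32, adjusted p = 2.6e-05, edgeR). *Plat* rose by a log2 fold change of 1.24 (SE 0.21), and *Furin*, which removes the prodomain of MMP14 inside the cell, by 0.51 (SE 0.08), at adjusted p-values of 0.0043 and 0.0036. *Plg*, which encodes plasminogen itself, had at most 1 count in any sample. *Lcn2*, whose product binds and stabilises MMP9, was at 7, 2 and 7 counts in controls and at 126, 13 and 52 in mutants (log2 fold change 3.54, SE 0.81, adjusted p = 0.019), a call lost without any 1 of the 3 control samples. *Plaur* and *Lcn2* reached 10 counts in no control sample and passed the filter only through the mutant samples, so that they had to differ. *Pcsk6* fell (-0.64, SE 0.17, adjusted p = 0.037), a call lost in 5 of the 6 fits with a sample left out, all but that without mutant sample 3. The adjusted p-values of these lost calls, over all alternatives, ran from 0.052 to 0.14 (edgeR and limma).

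Among the genes around ADAM17, 13 of 15 were tested, 3 rose and 2 fell. *Rhbdf1*, *Rhbdf2* and *Frmd8*, whose products carry ADAM17 to the cell surface and hold it there, did not pass the test (log2 fold changes -0.20, 0.14 and 0.17). Of the proteins that ADAM17 releases, the growth factor gene *Tgfa* was at 782, 720 and 829 counts in controls and at 1589, 1314 and 1393 in mutants (log2 fold change 0.88, SE 0.10, adjusted p = 5.5e-04, edgeR). *Tnf*, a classical NF-κB target, fell from 232, 212 and 199 counts to 96, 73 and 25 (log2 fold change -1.73, SE 0.34, adjusted p = 0.010, edgeR). Its receptor *Tnfrsf1a*, also shed by ADAM17, rose (0.84, SE 0.10, adjusted p = 6.6e-04). *Il6ra* rose by 0.57 (SE 0.15, adjusted p = 0.038) and *Ereg* fell (-0.58, SE 0.16, adjusted p = 0.042). These 2 calls were each lost in 4 of the 6 fits with a sample left out: *Il6ra* without control sample 1 or 3 or mutant sample 2 or 3, and *Ereg* without any control sample or mutant sample 2. Lost calls were at adjusted p-values of 0.051 to 0.13 over the alternatives (edgeR and limma). *Hbegf* and *Areg* did not pass the test, at log2 fold changes of 0.34 (SE 0.18) and 0.55 (SE 0.19).

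Of the 8 other ADAM proteases with an active catalytic domain, 5 were tested, 3 rose and 1 fell. *Adam8*, which is found on leukocytes and some activated epithelia, rose from 24, 26 and 48 counts to 265, 128 and 193 (log2 fold change 2.57, SE 0.33, adjusted p = 0.0010, edgeR). *Adam28* rose by 0.99 (SE 0.13, adjusted p = 0.0013) and *Adam10*, the closest relative of *Adam17*, by 0.34 (SE 0.08, adjusted p = 0.022), while *Adam15* fell (-0.24, SE 0.07, adjusted p = 0.045). The *Adam10* call was lost without any 1 control sample or without mutant sample 2, at adjusted p-values of 0.059 to 0.096, and the *Adam15* call without any 1 of the 6 samples, at up to 0.15. Of the 19 ADAMTS proteases, which cut proteoglycans and procollagen, 6 were tested. *Adamts1* was at 0, 0 and 1 counts in controls and at 17, 11 and 17 in mutants (summed level 44.8 times higher, 95% counting interval 7.65 to 1810, adjusted p = 0.0019, edgeR), and the adjusted p was 0.057 with limma on log2(FPKM + 1). Like *Mmp13*, *Adamts1* passed the filter only through the mutant samples, so that it had to differ. *Adamts18* fell from 238, 365 and 190 counts to 80, 23 and 128 (log2 fold change -1.79, SE 0.43, adjusted p = 0.026), a call lost without control sample 1 or control sample 2 and with DESeq2 (adjusted p-values up to 0.12).

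Transcription factors known to bind MMP promoters were all measured, and of the 13, 5 rose and 0 fell at an adjusted p under 0.05. The AP-1 genes among them encode Fos and Jun proteins, and whether these bound the promoters shown above was not tested. *Fosl1* was at 0 counts in each control sample and at 28.10, 47.80 and 50.29 expected counts in mutants, at least 13.9-fold higher than the floor of 3 counts per library (adjusted p = 5.3e-04, edgeR). Of its 50-base windows 52.6% also occur in *Ccdc85b*, so the division of its reads is uncertain. *Fosl1* passed the filter only through the mutant samples, so that it had to differ. *Jun* rose from 1282, 1234 and 1116 counts to 3859, 3488 and 2959 (log2 fold change 1.50, SE 0.11, adjusted p = 4.9e-05, edgeR). *Junb* rose by 0.52 (SE 0.14, adjusted p = 0.035), a call lost without any 1 control sample or without mutant sample 2 (adjusted p-values of lost calls 0.059 to 0.15). *Fos*, *Fosb*, *Fosl2* and *Jund* did not pass the test, at log2 fold changes of 0.27, 0.47, -0.27 and -0.06. *Runx1* rose by 0.90 (SE 0.11, adjusted p = 6.6e-04) and *Ets1* by 1.27 (SE 0.21, adjusted p = 0.0039). *Runx2*, the RUNX factor best known for binding the *Mmp13* promoter in bone, was at 139.56 to 209.75 counts and had a log2 fold change of -0.09 (SE 0.17).

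The basement membrane proteins that these enzymes can cut were also described at the RNA level. Of 15 genes 12 were tested, 5 rose and 1 fell. *Lamb3*, a laminin chain of epithelial adhesion, rose from 1110, 1083 and 942 counts to 2258, 2498 and 2646 (log2 fold change 1.23, SE 0.08, adjusted p = 3.0e-05, edgeR). The laminin chain gene *Lama3* rose by 0.40 (SE 0.10, adjusted p = 0.030). *Tnc*, the matrix protein tenascin C of healing wounds, was at 4, 3 and 4 counts in controls and at 144, 44 and 28 in mutants (log2 fold change 4.25, SE 0.74, adjusted p = 0.0052, edgeR). *Col7a1* of anchoring fibrils rose by 0.38 (SE 0.09, adjusted p = 0.026) and *Col4a5* fell (-0.46, SE 0.10, adjusted p = 0.019). Leaving out control sample 1 or 2 ended the calls of *Lama3*, *Col7a1* and *Col4a5*, as did control sample 3 or mutant sample 2 for *Lama3* and *Col7a1* and mutant sample 3 for *Col7a1* (adjusted p-values of lost calls 0.051 to 0.12, edgeR and limma). The *Tnc* call was lost with limma on log2(FPKM + 1), at an adjusted p of 0.076. With 3 or 4 counts in each control sample, *Tnc* passed the filter only through the mutant samples, so that it had to differ. *Col17a1*, the hemidesmosome collagen and by far the most abundant of the list at 64504 to 99331 counts, had a log2 fold change of 0.30 (SE 0.11), which did not pass the test.

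Over the 9 lists together, 65 of the 97 genes in the table were tested, and 31 were called at an adjusted p under 0.05, 23 of them higher and 8 lower, against 13.2% called, 7.82% higher and 5.42% lower among all genes tested. The median log2 fold change of the 65 was 0.17, against -0.00 for all 12667 genes. The lists were drawn up with earlier results of these data known, so nothing is read from this median or from these counts of calls. Of the 31 calls, 7 also met the stricter rule, which 1.37% of all genes tested met. The 31 include *Mmp12*, *Plaur*, *Lcn2*, *Adamts1*, *Fosl1* and *Tnc*, which passed the filter only through the mutant samples. Of these, *Mmp12*, *Plaur* and *Fosl1* are among the 7.

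**Figure D4:**
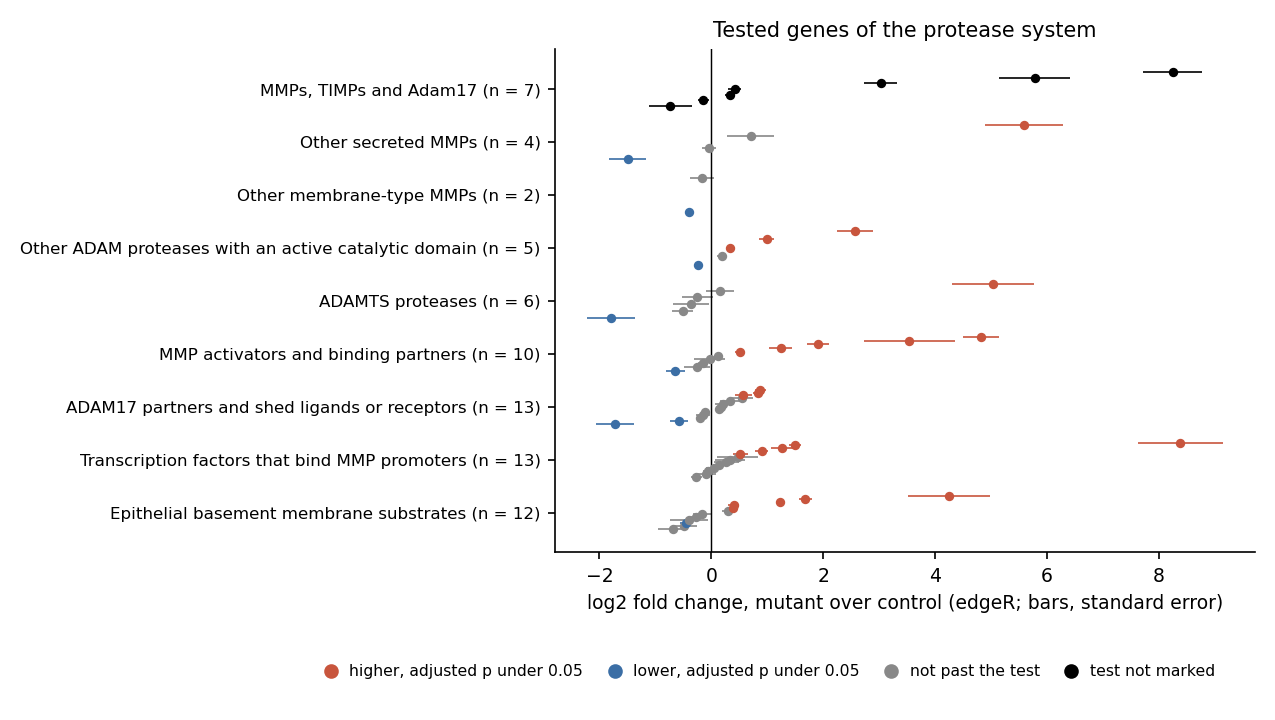
Log2 fold change of the mutant over the control group (x axis, edgeR, bars show the standard error) for each tested gene, grouped by list on the y axis with the number tested. The top row, the 7 tested genes of the 10, runs from -0.73 for *Timp3* to 8.25 for *Mmp13*, and 23 list genes are marked as higher and 8 as lower. The point of *Fosl1* at 8.39 has no control counts behind it, so its place depends on the fit and is no bound.

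The genes whose pattern over the 6 samples was most like that of *Mmp13* were found by the root-mean-square difference in log2(CPM + 0.5), each gene centred on its own mean. Among the nearest of the tested genes were *Dmkn* (0.312), *Dynap* (0.312) and *Serpina3n* (0.369). Each of these was below 1 FPKM in every control sample and highest in mutant sample 1. *Dmkn*, which encodes the secreted epithelial protein dermokine, was at 0.62, 0.32 and 0.81 FPKM in controls and at 146.56, 56.08 and 46.48 FPKM in mutants. Among the other 6 tested genes of the 10, *Timp1* came nearest to *Mmp13*, at rank 57 (difference 1.34), followed by *Mmp10* at rank 76 (1.50). *Timp3* was at rank 12614. The measure spans both groups, so the size and direction of the difference between mutant and control largely set it. The 10 genes were chosen with that difference known, so nothing further is read from these ranks.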

How the data were processed

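Corneal epithelial RNA of 3 control and 3 mutant mice was analysed. The authors filtered single-end 50-base reads, aligned them with Bowtie2 2.2.5 and deposited RSEM 1.2.12 expected counts per gene, neither normalized nor pooled, with FPKM values scaled by transcript length and sample total (versions from the submitters' processing notes). These notes name mm9, while the coordinates in the table are those of GRCm38. The deposited columns of group averages and of the authors' own comparison (fold changes and p-values) were not used. Library strandedness is not given in the sources used here.

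Expected counts were rounded and fitted with edgeR 4.0.16 in R 4.3.3 (TMM, filterByExpr at its minimum count, 10, and minimum total, 15, quasi-likelihood test, Benjamini-Hochberg adjustment over 12667 genes). Standard errors were derived from the fold change and its F statistic. Where the control counts summed to at most 10, the ratio of summed CPM is given with an exact 95% (Clopper-Pearson) counting interval. Alternatives used DESeq2 1.42.0, limma 3.58.1 on log2(FPKM + 1) and log2(FPKM + 0.1), other scalings and filters, a replicate block, and each sample left out. The statistics were tested on simulated data. The genes named are the 10 described, every list gene called, the markers, *Rela* and the 5 genes most like *Mmp13*; flanking genes and list genes that did not pass were added for context after their values were seen. A few genes covered by this naming rule are left unreported here. The 10 genes, the lists and the rules were chosen with earlier results of these data known. Windows of 50 bases were compared between GENCODE transcripts of GRCm38.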

Additional observations from a re-analysis of the deposited data

How the results depend on the processing

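All 7 tested genes of the 10 kept their direction under every alternative that gave a value, and *Mmp13*, *Mmp10* and *Timp1* kept their call (log2 fold changes 3.15 to 9.49, 1.57 to 3.19 and 2.07 to 6.62). The low ends came from limma on log2(FPKM + 1), where the added 1 shrinks the fold of genes at low FPKM. In the fits on counts the lowest values were 7.70, 2.72 and 5.24. *Mmp14* (-0.21 to -0.03) and *Timp3* (-1.19 to -0.36) stayed uncalled. *Timp2* (0.29 to 0.51) lost its call in 9 of 13 alternatives and *Adam17* (0.26 to 0.39) in 4. With no filter, where *Mmp3*, *Mmp9* and *Mmp2* enter, 8 of the 10 genes were called, against 1731 of all 17514 genes. These 3 had 4.48, 1 and 1 expected counts summed over the controls. With at least 10 counts in every sample, where *Mmp13* and *Timp1* drop out, 3 of the 10 were called, against 1551 of 11968 genes. The 10 were chosen with this contrast known, so nothing is read from such numbers of calls. With a sample left out, 3 to 5 of the 10 were called. By the stricter rule, 1 was called with at least 10 counts in every sample and 1 to 3 with a sample left out. Over all genes, 1678 were called and 857 to 1869 with a sample left out; by the stricter rule 173, 330 with DESeq2, 114 with limma on log2(FPKM + 1) and 36 to 193 with a sample left out (36 without control replicate 2). Of the list genes, 31 were called and 20 to 32 with a sample left out; 17 kept their call under every alternative and none of the 31 reversed. The difference in the mean log2 ratio of MMP to TIMP sums (mutant minus control), -0.27, was -0.44 without *Mmp13*, 4.36 without *Mmp14*, 0.02 without *Timp1*, -0.68 without *Timp3* and -0.07 with CPM in place of FPKM, which are not scaled by length. Same-numbered samples are different mice, and their deviations from the group means did not go together (r across genes 0.019, 0.048 and -0.046), so the numbers do not pair the samples. A fit with the replicate block called 1419 genes, 4 of the 10 genes (*Timp2* lost its call) and 29 list genes. Among genes under 5 counts in the control samples, depth limits every fold to its counting interval.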
